A study of Mus musculus with 8 samples.

Results

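Expression of 10 genes of vitamin A (retinoid) metabolism, together with the intestinal homeobox gene Isx as one of them, was examined in epithelial cells of the mouse distal colon. The members were Aldh1a1, Aldh1a2, Aldh1a3, Rdh10, Dhrs3, Scarb1, Bco1, Rbp2, Isx and Rarb, 10 of the 54141 Ensembl genes listed in the deposited table, and each was found by its symbol. The group was put together with the levels in these libraries known, in view of the high Aldh1a1 and Isx of Degs2_KO3 and WT1. Variation over libraries is therefore given as a description, and the contrast of genotypes is shown with its test for each member. The 4 Degs2_KO libraries came from mice with both copies of Degs2 mutated and the 4 WT libraries from wild-type mice, all of c57bl6/j background. Degs2 encodes a sphingolipid desaturase and hydroxylase, and the comparison asks what its loss does to the transcriptome of colonic epithelium. The sources used here give neither the part of the gene that the mutation removes nor the age of the mice or their number per library. The p-values thus rest on the spread between libraries, which may be technical.

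Vitamin A reaches the gut lining as carotenoids or retinyl esters. The scavenger receptor made by Scarb1 takes up carotenoids, the oxygenase made by Bco1 cleaves them to retinal, and Rbp2 encodes the binding protein that carries retinol and retinal inside absorptive cells. Rdh10 encodes a dehydrogenase that oxidizes retinol to retinal, Dhrs3 a reductase for the reverse step, and the retinal dehydrogenases Aldh1a1, Aldh1a2 and Aldh1a3 make retinoic acid from retinal. Retinoic acid acts through nuclear receptors, one of which is made by Rarb, itself a known target of retinoic acid. In the mouse small intestine, Isx is known to be induced by retinoic acid and to repress Bco1 and Scarb1.

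The promoters of 3 members are printed because Rarb carries the known response element of the pathway and because Aldh1a1 and Isx are the members that were high in Degs2_KO3 and WT1. They come from RefSeq on GRCm38.p6, each from 250 bases before to 50 bases after an annotated start, and 7 of the 10 members had an entry, with 10 windows in all. Capitals mark matches to any of the searched motifs on either strand. The direct repeat bound by retinoic acid receptors was searched as 2 copies of GGTCA separated by 6 bases. For each copy the spelling GTTCA was accepted too. The search for Cdx factors used TTTATG. That for Gata factors used AGATAA, and the TATA box was searched as TATAAA. The windows are Rarb at chr14:16575427-16575726 on the minus strand, Isx at chr8:74872924-74873223 and Aldh1a1 at chr19:20492333-20492632 and chr19:20601718-20602017, all 3 on the plus strand.
Rarb: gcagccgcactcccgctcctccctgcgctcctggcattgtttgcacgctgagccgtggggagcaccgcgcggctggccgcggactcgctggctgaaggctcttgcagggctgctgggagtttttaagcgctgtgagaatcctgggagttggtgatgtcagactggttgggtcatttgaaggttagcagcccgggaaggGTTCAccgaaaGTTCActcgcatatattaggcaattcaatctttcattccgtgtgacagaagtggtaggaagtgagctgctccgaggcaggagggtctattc
Isx: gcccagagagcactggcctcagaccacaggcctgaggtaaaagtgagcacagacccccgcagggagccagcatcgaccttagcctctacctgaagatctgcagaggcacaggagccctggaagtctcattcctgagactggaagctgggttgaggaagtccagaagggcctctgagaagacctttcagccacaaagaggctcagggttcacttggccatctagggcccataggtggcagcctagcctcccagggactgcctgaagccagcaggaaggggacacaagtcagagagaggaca
Aldh1a1, upstream start: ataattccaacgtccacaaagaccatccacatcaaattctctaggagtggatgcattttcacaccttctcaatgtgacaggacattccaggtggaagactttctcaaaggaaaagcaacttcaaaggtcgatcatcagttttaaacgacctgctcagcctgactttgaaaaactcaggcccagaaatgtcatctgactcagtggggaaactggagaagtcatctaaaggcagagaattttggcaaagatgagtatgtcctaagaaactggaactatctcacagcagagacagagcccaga
Aldh1a1, downstream start: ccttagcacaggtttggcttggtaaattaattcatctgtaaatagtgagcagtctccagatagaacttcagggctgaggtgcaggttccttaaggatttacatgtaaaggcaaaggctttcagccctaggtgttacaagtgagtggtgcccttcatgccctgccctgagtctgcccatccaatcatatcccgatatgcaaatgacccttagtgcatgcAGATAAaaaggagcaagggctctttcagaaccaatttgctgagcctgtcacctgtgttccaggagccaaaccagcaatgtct
The Rarb window held the direct repeat beginning 52 bases before the start, a pattern found in 81 of 32851 RefSeq promoter windows (0.247%). Among the member windows no other held it. The downstream Aldh1a1 window held the Gata motif 32 bases before the start, as did 11.2% of all windows, and the Isx window held none of the searched letters. Rbp2 also had the Gata motif and the TATA box, and Bco1 the Cdx motif and the TATA box; TTTATG was in 11.9% and TATAAA in 13.6% of all windows. A match is a run of letters only, and its absence says only that these letters are not in this window.

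Scaled totals of estimated counts lay between 41622927 and 43973065 in Degs2_KO libraries and between 42940037 and 44606092 in WT libraries. Undoing the authors' scaling gave 43.2 to 46.2 M fragments in Degs2_KO and 32.8 to 49.8 M in WT. The library with 32.8 M was WT1, and the next lowest was WT4 at 42.4 M. The summed level of 7 epithelial markers was between 13340 and 15050 CPM (counts scaled to a common library size) in Degs2_KO and between 12682 and 16285 CPM in WT, with Krt8, a keratin, at 4942 ± 321 CPM in Degs2_KO and 4789 ± 584 CPM in WT (SD, n = 4 each). The mutated gene was at 53.3, 47.7, 65.6 and 65.9 CPM in Degs2_KO1 to 4, against 151, 110, 106 and 120 CPM in WT1 to 4, so the groups did not overlap. Its log2 fold change was -1.07 ± 0.15 (SE). It shares 278 bases of exon with Evl, a gene at 2.13 ± 0.971 CPM in Degs2_KO and 1.56 ± 0.942 CPM in WT (SD, n = 4 each). In an exact permutation test (2-sided, 70 assignments) p was 0.0286, its lowest possible value, while edgeR's adjusted p over all genes was 0.796. The libraries Degs2_KO3 and WT1 stood apart from the other 6 on the first principal component (50.3% of the variance), at -59.1 and -53.9 against values from -1.09 to 43.0. Each genotype holds 1 of them. The fold changes, ranges and likeness of Aldh1a1 and Isx are given with and without them.

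The members covered a wide range of levels. Ranked by mean CPM per kb of annotated exon over the 8 libraries, the order was Aldh1a1 (18.8), Isx (17.1), Dhrs3 (10.8), Rbp2 (9.14), Rdh10 (6.21), Scarb1 (2.51), Bco1 (1.06), Aldh1a3 (0.355), Aldh1a2 (0.185) and Rarb (0.0828). Of the neighbours in this order, only Rdh10 and Scarb1, Scarb1 and Bco1, and Bco1 and Aldh1a3 had library values that did not overlap. With the length of the longest transcript in place of the union of exons, Scarb1 came to 6.89 and Rdh10 to 7.20 CPM per kb. Bco1 then reached down to 0.656 and Aldh1a3 up to 0.788 CPM per kb. The gaps between Rdh10 and Scarb1 and between Bco1 and Aldh1a3 thus depend on the length used. Of the summed level per kb of the 3 retinal dehydrogenases, Aldh1a1 held 91.1% to 99.5% in Degs2_KO and 84.8% to 99.6% in WT, the largest share in every library.

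**Figure D1:**
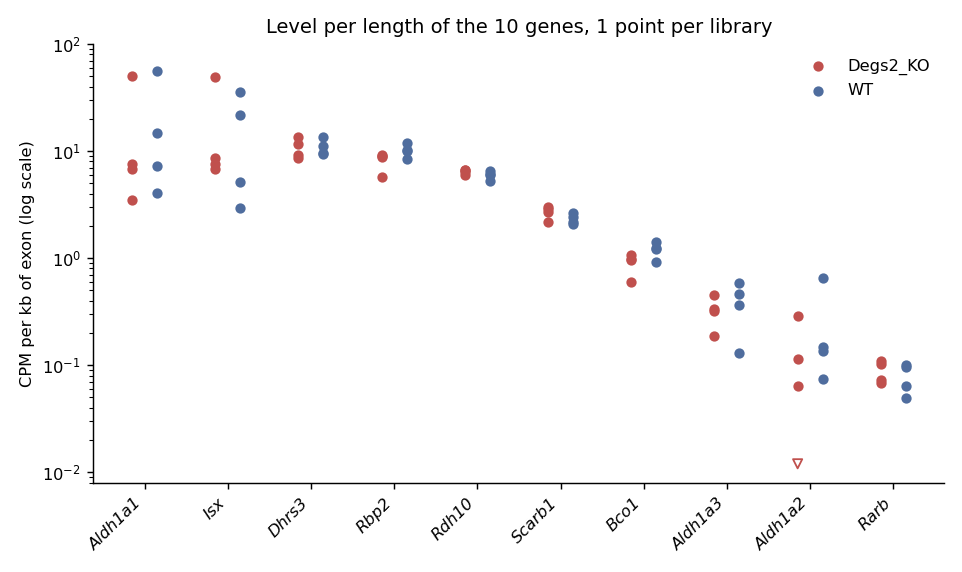
Level per length of the 10 genes in CPM per kb of exon (log axis), 1 point per library, Degs2_KO left of WT. The open triangle marks the Degs2_KO library in which Aldh1a2 had no fragment. Aldh1a1 and Isx spread over more than any other well expressed member, and Rdh10 lay between 5.27 and 6.72.

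Aldh1a1 (ENSMUSG00000053279, chromosome 19, 20492715 to 20643465, plus strand, GRCm38), the main retinal dehydrogenase of these libraries, differed 16.0-fold between its highest and its lowest library. It was at 37.2, 33.4, 246 and 17.4 CPM in Degs2_KO1 to 4, against 278, 19.9, 36.1 and 73.4 CPM in WT1 to 4. One library of each genotype was high: Degs2_KO3 was at 7.37 times the median of the other Degs2_KO libraries and WT1 at 7.70 times the median of the other WT libraries. The spread of its log2 CPM over the 8 libraries exceeded that of 99.4% of the 16132 tested genes. Over the 6 libraries without Degs2_KO3 and WT1 the range was 4.21-fold and the spread exceeded that of 96.4%. Its log2 fold change between genotypes was -0.29 ± 0.995 (SE; 95% interval -2.55 to 1.97). Without WT1 it was 0.97 and without Degs2_KO3 it was -1.80, so the sign of the contrast followed the library left out. Without both it was -0.55 ± 0.47, and without Degs2_KO4 it was 0.05.

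Its neighbour Aldh1a7, a closely related gene on the same chromosome, was examined because reads of near copies can be split between them. Only 3.06% of the 50-base words in Aldh1a1 transcripts occur in Aldh1a7. Aldh1a7 was at 15.8, 14.3, 23.7 and 10.7 CPM in Degs2_KO1 to 4, against 22.4, 12.02, 15.4 and 15.3 CPM in WT1 to 4. It was highest in Degs2_KO3 and WT1 as well, but its largest value was 2.21 times its smallest.

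Aldh1a3 (ENSMUSG00000015134, chromosome 7, 66390890 to 66427517, minus strand) had 571 fragments over all libraries. It was at 2.07, 1.49, 0.863 and 1.54 CPM in Degs2_KO1 to 4, against 0.602, 2.71, 2.15 and 1.67 CPM in WT1 to 4. Here Degs2_KO3 and WT1 were the lowest of their genotype, the reverse of Aldh1a1. The log2 fold change was -0.26 ± 0.44, 0.02 without WT2 and -0.35 ± 0.25 without both Degs2_KO3 and WT1.

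Aldh1a2 (ENSMUSG00000013584, chromosome 9, 71215789 to 71296243, plus strand), which is known from mesenchymal and mesothelial cells, was close to the limit of detection, with 139 fragments in all. It was at 0.650, 0.261, 0.144 and 0 CPM in Degs2_KO1 to 4, against 0.169, 0.310, 0.334 and 1.48 CPM in WT1 to 4. In Degs2_KO4 no fragment was counted, which at a floor of 3 fragments allows up to 0.0689 CPM. WT4 alone held 59 of the fragments. The log2 fold change was -1.11 ± 0.94 with all libraries, -0.05 without WT4 and -2.05 without Degs2_KO1.

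Markers of cells outside the epithelium were read in the same libraries. Of 6 fibroblast markers all had fragments in at least 1 library, and their summed level was 15.9, 4.53, 2.57 and 1.33 CPM in Degs2_KO1 to 4, against 4.05, 6.14, 9.22 and 30.8 CPM in WT1 to 4. The 4 mesothelium markers summed to 6.04, 2.16, 0.959 and 0.427 CPM in Degs2_KO1 to 4, against 1.54, 1.48, 3.77 and 10.8 CPM in WT1 to 4. Both lists and Aldh1a2 were highest in WT4, next highest in Degs2_KO1 and lowest in Degs2_KO4. The part of these cells in the Aldh1a2 values was not tested. In such bulk libraries, fewer cells of a type and less RNA per cell cannot be told apart.

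**Figure D2:**
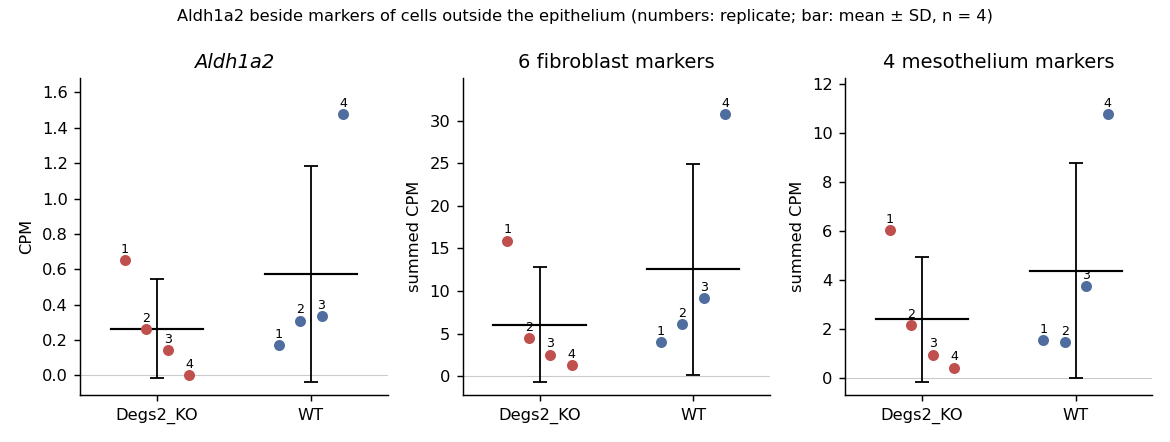
Aldh1a2 in CPM beside the summed CPM of 6 fibroblast and 4 mesothelium markers, Degs2_KO left of WT, with each point numbered by replicate and the bars giving mean ± SD (n = 4). In all 3 panels WT4 is the highest point and Degs2_KO4 the lowest.

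Rdh10 (ENSMUSG00000025921, chromosome 1, 16105774 to 16133734, plus strand), whose product makes the retinal that the dehydrogenases use, was nearly level. It was at 25.0, 27.9, 28.0 and 26.4 CPM in Degs2_KO1 to 4, against 21.9, 27.3, 25.2 and 25.0 CPM in WT1 to 4. Its spread exceeded that of only 18.3% of the tested genes. The log2 fold change was 0.11 ± 0.09, and its 95% interval, 0.940-fold to 1.24-fold, was the narrowest of the members.

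Dhrs3 (ENSMUSG00000066026, chromosome 4, 144892827 to 144928209, plus strand), which returns retinal to retinol, was at 27.0, 25.1, 39.4 and 33.9 CPM in Degs2_KO1 to 4, against 27.5, 28.3, 32.6 and 39.8 CPM in WT1 to 4. Degs2_KO3 and WT4 were high in their groups and WT1 was the lowest WT library, so Dhrs3 did not follow Aldh1a1. Its log2 fold change was -0.03 ± 0.17 (95% interval 0.749-fold to 1.28-fold). The sign turned when WT4, Degs2_KO1 or Degs2_KO2 was left out (0.09, 0.05 and 0.06).

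Scarb1 (ENSMUSG00000037936, chromosome 5, 125277087 to 125341094, minus strand), the carotenoid uptake receptor, was at 18.6, 24.4, 25.4 and 22.8 CPM in Degs2_KO1 to 4, against 22.3, 18.6, 20.7 and 17.6 CPM in WT1 to 4. Degs2_KO2, Degs2_KO3 and Degs2_KO4 lay above every WT library, but Degs2_KO1 lay within the WT range. The log2 fold change was 0.21 ± 0.12 with all libraries, with an unadjusted edgeR p of 0.125. Without Degs2_KO1 it was 0.30, and edgeR's unadjusted p was 0.0273, in a setting where 298 genes were under 0.05.

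Bco1 (ENSMUSG00000031845, chromosome 8, 117095854 to 117133720, plus strand), the carotenoid cleavage enzyme, was at 2.72, 2.47, 1.53 and 2.51 CPM in Degs2_KO1 to 4, against 2.36, 3.10, 3.63 and 3.17 CPM in WT1 to 4. Its lowest library in each genotype was the one in which Aldh1a1 and Isx were highest. It averaged 2.31 ± 0.528 CPM in Degs2_KO and 3.06 ± 0.525 CPM in WT (SD, n = 4 each), a log2 fold change of -0.41 ± 0.22 with an unadjusted edgeR p of 0.0987. Without both Degs2_KO3 and WT1 it was -0.36 ± 0.15.

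Rbp2 (ENSMUSG00000032454, chromosome 9, 98486115 to 98509781, plus strand), the retinol carrier of absorptive cells, was at 8.86, 8.44, 8.63 and 5.50 CPM in Degs2_KO1 to 4, against 9.56, 9.76, 11.4 and 8.16 CPM in WT1 to 4. Its log2 fold change was -0.31 ± 0.17, and -0.17 without Degs2_KO4, the lowest library. Although Rbp2 is best known from the small intestine, its values did not share the order of Slc10a2 and Fabp2, genes of the small intestine described further on.

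Isx (ENSMUSG00000031621, chromosome 8, 74873173 to 74893506, plus strand), the homeobox repressor, varied as widely as Aldh1a1. It was at 15.3, 12.3, 87.7 and 13.7 CPM in Degs2_KO1 to 4, against 63.3, 5.26, 9.12 and 38.9 CPM in WT1 to 4. Degs2_KO3 and WT1 were again high, at 6.41 and 6.94 times the median of the other libraries of their genotype, but WT4 was high too, and by a larger ratio to WT2 than Aldh1a1 showed. Its spread exceeded that of 99.2% of the tested genes, and that of 98.5% without Degs2_KO3 and WT1, where its range was 7.39-fold. The log2 fold change was 0.15 ± 0.89 with all libraries, 0.88 without WT1, -1.08 without Degs2_KO3 and -0.37 ± 0.65 without both. It was also below 0 without WT2 (-0.20) or WT3 (-0.15).

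Within each genotype, the library with the highest Isx (Degs2_KO3 and WT1) had the lowest Bco1. The other gene that Isx is known to repress, Scarb1, was highest in those same libraries within each genotype (25.4 CPM in Degs2_KO3 and 22.3 CPM in WT1). The low Bco1 value in WT1 was 2.36 CPM, within the Degs2_KO range of 1.53 to 2.72 CPM. In WT4, where Isx was also high (38.9 CPM), Bco1 was at 3.17 CPM. In WT2, where Isx was lowest (5.26 CPM), it was at 3.10 CPM. The low Bco1 values rest on 66 fragments in Degs2_KO3 and 75 in WT1.

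Rarb (ENSMUSG00000017491, chromosome 14, 16430839 to 16819156, minus strand), the retinoic acid receptor with the response element printed above, had 147 fragments over the 8 libraries. It was at 0.361, 0.380, 0.575 and 0.546 CPM in Degs2_KO1 to 4, against 0.530, 0.333, 0.501 and 0.262 CPM in WT1 to 4. Degs2_KO3 and WT1 were the highest of their genotype, by a small margin over Degs2_KO4 and WT3. The log2 fold change was 0.19 ± 0.31. Rarb shares 1793 bases of annotated exon with Top2b on the other strand, a topoisomerase gene at 154 ± 17.8 CPM in Degs2_KO and 151 ± 19.8 CPM in WT (SD, n = 4 each). The sources used here do not state if strand was used in counting, so reads of the shared part cannot be told apart.

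**Figure D3:**
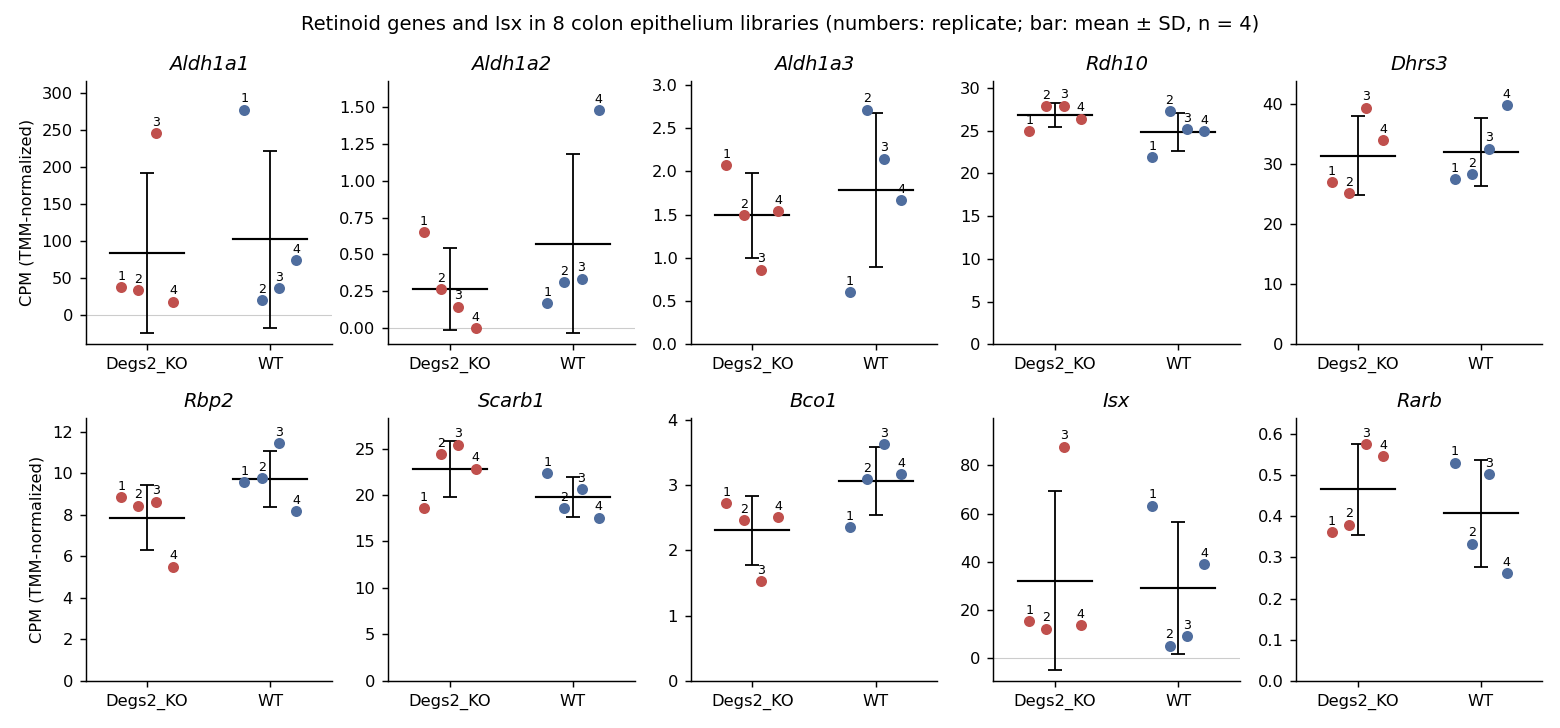
CPM of each member by library, Degs2_KO left of WT, with points numbered by replicate and bars giving mean ± SD (n = 4); each panel has its own axis. Replicate 3 of Degs2_KO and replicate 1 of WT are the high points of Aldh1a1 and Isx and the low points of Aldh1a3 and Bco1, and in all 10 panels the groups overlap.

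No member differed between genotypes beyond the spread of the libraries. All 10 passed the filter on low counts, and edgeR's quasi-likelihood test, adjusted over 16132 genes by the Benjamini-Hochberg method, called 0 of them and 0 of all genes (0%). The adjusted p was 0.9996 for each member. At an unadjusted p under 0.05 it found 0 members and 183 genes (1.13%), and the number of genes was 782 without WT1, 298 without Degs2_KO1 and 292 without Degs2_KO3. DESeq2 and limma-trend also called 0 members, and DESeq2 called 2 genes in all, Degs2 and Dlk1. The libraries of the genotypes overlapped for all 10 members, and did not overlap for 168 of all tested genes (1.04%). Of the members 4 were higher and 6 lower in Degs2_KO, with a median log2 fold change of -0.14 against -0.007 over all tested genes. The intervals differ in what they leave possible. For Rdh10, Dhrs3 and Scarb1 they end within 1.40-fold of no change in either direction, while for Aldh1a1 they run from 0.171-fold to 3.92-fold and for Isx from 0.273-fold to 4.48-fold.

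**Figure D4:**
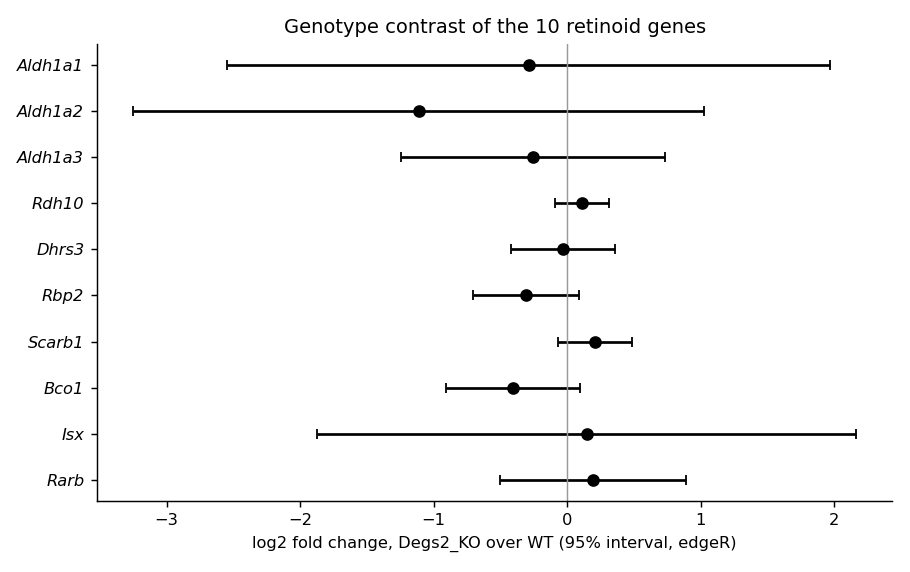
Log2 fold change of each member, Degs2_KO over WT, with its 95% interval from edgeR. Every interval includes 0; that of Rdh10 is the narrowest and those of Aldh1a1, Aldh1a2 and Isx are the widest.

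The other genes of the pathway were taken from a list of 65. Of these 48 were tested, 19 were higher and 29 lower in Degs2_KO, none passed edgeR's adjusted threshold or an unadjusted p under 0.05 (DESeq2 also called 0), and the median log2 fold change was -0.04. Without WT1 edgeR found 4 of the 48 at an unadjusted p under 0.05, beside 782 of all 16367 genes tested in that setting. Still 0 were past the adjusted threshold. The examples that follow are the most abundant tested genes of each role.

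Among 14 tested genes of uptake, binding and esterification, Apob, the protein of chylomicrons, had a log2 fold change of -0.32 ± 0.37, Dgat1, an acyltransferase that can esterify retinol, -0.02 ± 0.11, and Stra6l, a retinol transporter, -0.10 ± 0.26. Stra6l was at 18.5, 19.0, 35.0 and 19.3 CPM in Degs2_KO1 to 4, against 35.8, 19.7, 23.0 and 20.1 CPM in WT1 to 4, high in the same libraries as Aldh1a1, and its log2 fold change without both was -0.14 ± 0.09. Of 17 tested oxidoreductases, Adh1, an alcohol dehydrogenase that oxidizes retinol, was the most abundant. It was at 709, 680, 393 and 665 CPM in Degs2_KO1 to 4, against 343, 808, 1038 and 626 CPM in WT1 to 4, lowest where Aldh1a1 was highest. Its log2 fold change was -0.20 ± 0.32 with all libraries and -0.26 ± 0.17 without both. That of Retsat, the retinol saturase, was 0.02 ± 0.11 and that of Akr1b8, a retinal reductase, 0.09 ± 0.20.

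The enzymes of retinoic acid breakdown, Cyp26a1, Cyp26b1 and Cyp26c1, were too low to be tested, with a highest value of 0.193 CPM (Cyp26b1 in WT1). Of the other genes in that list, Ugt2b34, a glucuronosyltransferase of a family with near copies, had a log2 fold change of 0.04 ± 0.11 and Cyp2s1, a cytochrome P450, -0.24 ± 0.18. Receptors and coregulators (11 tested) lay close to 0, with Ppard, a nuclear receptor that binds fatty acids, at -0.03 ± 0.13, the corepressor Ncor1 at -0.03 ± 0.19 and the corepressor Nrip1 at -0.12 ± 0.21. Of 4 tested targets, Tgm2, a transglutaminase induced by retinoic acid in several cell types, was at 6.72, 7.19, 22.03 and 6.29 CPM in Degs2_KO1 to 4, against 23.1, 5.29, 5.52 and 8.16 CPM in WT1 to 4. The pair of high libraries was that of Aldh1a1, and the log2 fold change was 0.007 ± 0.58 with all libraries and 0.09 ± 0.19 without both. Rarres2, the chemerin gene, had a log2 fold change of -0.30 ± 0.23.

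The factors known to drive gut genes did not share 1 pattern. Cdx1, an intestinal homeobox factor, was even, at 316 ± 13.8 CPM in Degs2_KO and 305 ± 14.7 CPM in WT (SD, n = 4 each), as was Gata6 at 75.2 ± 1.71 CPM in Degs2_KO and 76.1 ± 3.06 CPM in WT. Cdx2, the related homeobox factor, was at 201, 192, 299 and 179 CPM in Degs2_KO1 to 4, against 289, 132, 127 and 246 CPM in WT1 to 4. Its high libraries, Degs2_KO3, WT1 and WT4, were those of Isx. Of the 7 tested genes of this list edgeR called 0 past the adjusted threshold; Hnf4g, a nuclear receptor, had a log2 fold change of -0.24 ± 0.10 and an unadjusted p of 0.0477. Hnf4a was left out because its estimate had failed in at least 1 library.

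Likeness over libraries was measured as the root mean square difference of log2 CPM, each gene centred on its own mean, over the 8 libraries and 11014 named genes with a mean log2 CPM of at least 1. Closest to Aldh1a1 was Car1, a carbonic anhydrase of colonocytes, at a difference of 0.17 (log2). Car1 was at 1276, 981, 6570 and 522 CPM in Degs2_KO1 to 4, against 6179, 536, 1020 and 1941 CPM in WT1 to 4. Next came Ugt1a1, the bilirubin glucuronosyltransferase (0.33), Slc51a, a subunit of the basolateral bile acid exporter (0.33), Padi2, an arginine deiminase (0.37), Abcc5, an export pump (0.38), and Rasgrf2, an exchange factor for Ras (0.42). Closest to Isx were Padi2 (0.22), Alpi, an alkaline phosphatase of the gut brush border (0.23), Mgll, a monoacylglycerol lipase (0.24), Prkg2, a cGMP-dependent kinase (0.27), Ugt1a1 (0.28) and Cyp2c65, a cytochrome P450 (0.28). Isx ranked 26 among the genes closest to Aldh1a1, at a difference of 0.56, and the next of the ranked members, Scarb1, ranked 3012. Aldh1a2, Aldh1a3 and Rarb had a mean log2 CPM under 1 and were not ranked. Ugt1a1 shares exons with other genes of its cluster and Cyp2c65 has near copies, so their counts are less certain. Ranked by Pearson correlation instead, only Car1 stayed among the 6 closest to Aldh1a1, and only Mgll and Padi2 among those closest to Isx. The order also rested on Degs2_KO3 and WT1. Over the 6 libraries without them, a setting chosen after seeing the data, Car1 was again the closest to Aldh1a1 (0.12), but it was the only 1 of the 6 that stayed, and Isx ranked 712. For Isx 3 of the 6 stayed, namely Mgll, Padi2 and Alpi, and Aldh1a1 ranked 97, against 37 over all 8 libraries.

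Genes that mark position along the gut differed between the same libraries. Slc10a2, the ileal bile acid transporter, was at 3.47, 3.46, 70.3 and 2.11 CPM in Degs2_KO1 to 4, against 101, 3.31, 4.89 and 11.7 CPM in WT1 to 4. Fabp2, the intestinal fatty acid binding protein, was at 147, 125, 436 and 123 CPM in Degs2_KO1 to 4, against 354, 68.9, 84.3 and 212 CPM in WT1 to 4. Both were highest in Degs2_KO3 and WT1 within their genotypes. So was Cbr1, a carbonyl reductase, at 255 CPM in Degs2_KO3 and 240 CPM in WT1, but its range was narrower. Cbr1 averaged 203 ± 38.9 CPM in Degs2_KO and 208 ± 23.1 CPM in WT (SD, n = 4 each). The 14 small intestine genes other than Rbp2 summed to 355, 327, 795 and 291 CPM in Degs2_KO1 to 4, against 799, 265, 287 and 462 CPM in WT1 to 4. Fabp2 and Cbr1 held most of that sum, and the list did not rise as a whole. Only 8 of the 14 were tested. Fabp1, Apoa1, Apoa4, Apoc3, Lct and Onecut2 were too low for it, and none of them was above 0.264 CPM in Degs2_KO3 or WT1.

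The list written for the distal colon did not move as 1 group. Car1 was its most abundant gene in every library, and Aqp8, a water channel, was at 251 ± 87.1 CPM in Degs2_KO and 269 ± 36.0 CPM in WT (SD, n = 4 each). Hoxd13, a posterior homeobox gene picked from the list after its values were seen, went the other way from Aldh1a1. It was at 60.7, 47.7, 0.312 and 42.5 CPM in Degs2_KO1 to 4, against 0.699, 84.4, 85.3 and 38.8 CPM in WT1 to 4. Of the neighbouring Hoxd10, Hoxd11 and Hoxd12, also in the list, 0.0479 CPM of Hoxd10 was found in Degs2_KO3, and the remaining values in Degs2_KO3 and WT1 were 0. Whether position along the colon has a part in the levels of Aldh1a1 and Isx was not tested.

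Markers of T cells also moved with those libraries. The 4 markers summed to 5.37, 4.15, 10.5 and 2.97 CPM in Degs2_KO1 to 4, against 13.8, 3.93, 1.31 and 7.92 CPM in WT1 to 4, and their part in the levels of the members was not tested. Summed markers of the remaining cell types were low in all libraries, at 2.64 to 4.15 CPM in Degs2_KO and 2.60 to 6.51 CPM in WT for 6 myeloid and dendritic genes, and at 1.49 to 3.13 CPM in Degs2_KO and 2.52 to 5.23 CPM in WT for 4 endothelial genes. For 4 genes of glia and neurons the range was 1.71 to 2.73 CPM in Degs2_KO and 2.004 to 3.22 CPM in WT. The 3 smooth muscle genes stayed under 1 CPM in sum in every library, and the 5 of squamous epithelium lay between 0.336 and 1.04 CPM in Degs2_KO and between 0.530 and 1.19 CPM in WT. Emcn of the endothelial and Trp63 of the squamous markers had no fragment in any library.

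**Figure D5:**
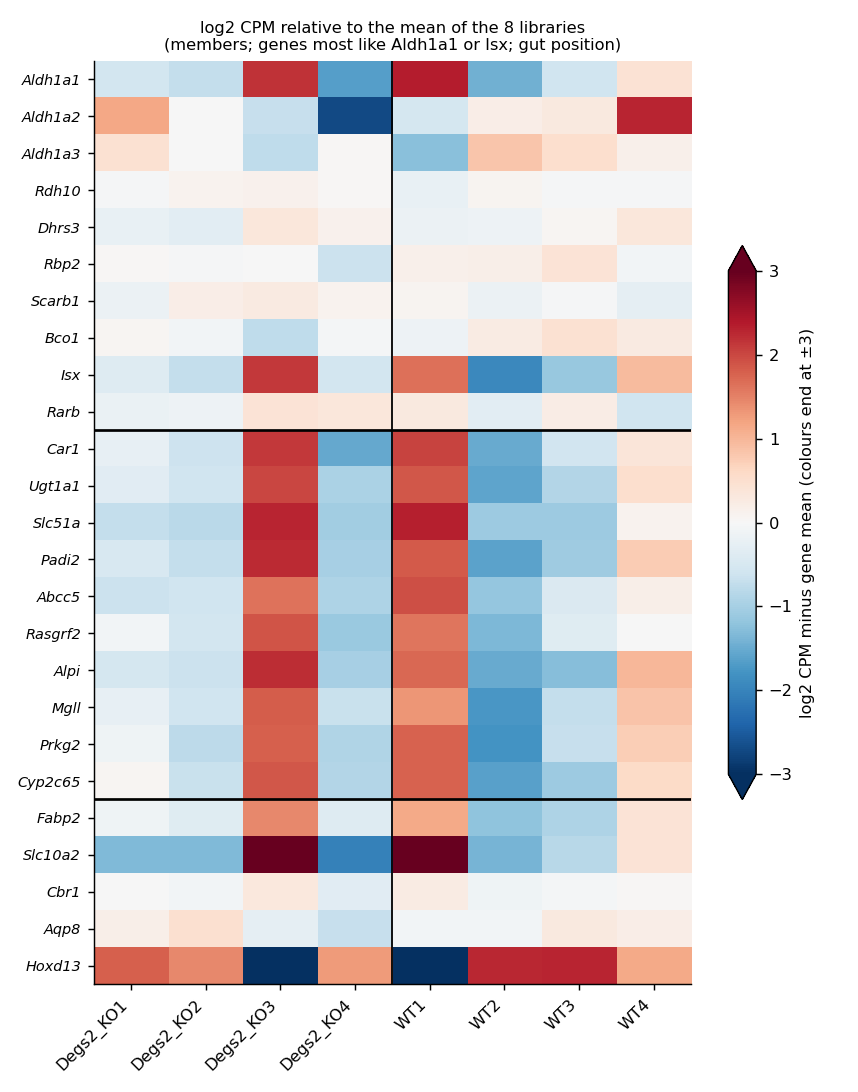
Log2 CPM minus the gene's mean over the 8 libraries (colour scale from -3 to 3), Degs2_KO left of WT, for the members, the genes closest to Aldh1a1 or Isx and genes of gut position. Degs2_KO3 and WT1 are the high libraries of Aldh1a1, Isx and the genes like them and the low libraries of Hoxd13, while Rdh10 and Scarb1 are nearly even.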

How the data were processed

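RNA was measured by sequencing in 8 libraries of EDTA-released epithelial cells of the distal colon, grouped by their titles into Degs2_KO and WT. Per the submitters' processing notes, cutadapt 1.9, TopHat2 2.0.10, Cufflinks 2.1.1 and Cuffdiff were used with mm10, with no annotation named. The authors deposited estimated counts per gene, scaled by 1 factor per library: 96.9% to 97.2% of values up to 100 were whole within 0.02 after division by the step. In 47 genes a library had a failed estimate (listed at 0), and these were left out; 54074 of 54141 IDs matched a symbol. Counts were rounded, filtered with filterByExpr (minimum 10, total 15; 16132 genes kept), TMM-normalized and tested with edgeR 4.0.16 (quasi-likelihood F test, 2-sided, group as the only term, Benjamini-Hochberg at 0.05) in R 4.3.3. The intervals are 95% and use the spread between libraries. The test was tried on simulated counts first. CPM was computed with TMM factors, and a prior count of 2 entered log2 CPM. Gene lengths and positions were read from GENCODE M21 (GRCm38, that is, mm10). The floor of 3 fragments covers counting error only.

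The members and gene lists were chosen with earlier results of these data known. Named are all members, up to 3 of the most abundant tested genes of each list, and the 6 genes closest to Aldh1a1 and to Isx; a few genes of the lists are not reported here. The alternatives tried were size factors by median of ratios, scaling to library totals, DESeq2 1.42.0, limma-trend (limma 3.58.1), all genes unfiltered, a stricter filter (50 counts, and 1 CPM throughout a group of 4), a replicate block, each library left out, WT1 and Degs2_KO3 left out together, and the authors' scaling undone. Likeness, range and spread without WT1 and Degs2_KO3 were added after the data had been seen.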

Additional observations from a re-analysis of the deposited data

Results flagged for a closer look

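In 88 groups of 4 values, 15 had a highest or lowest value farther from the others than Dixon's 95% limit for 4 samples. Chance flags about 1 group in 20, but the 15 cannot be read against that rate: the Degs2_KO3 levels of Aldh1a1 and Isx were known when the genes were chosen, and several groups share genes or libraries. The values are given as a description. Degs2_KO3 was the high library for Aldh1a1 (245.7 CPM, the other Degs2_KO libraries 17.4 to 37.2), Isx (87.7, others 12.3 to 15.3), Stra6l (35.0, others 18.5 to 19.3) and Tgm2 (22.03, others 6.29 to 7.19). It was also high for the summed retinoid target genes (26.3 CPM, others 10.4 to 13.0), small intestine genes (795 CPM, others 291 to 355) and distal colon genes (7203 CPM, others 1400 to 2329), and low for Adh1 (393 CPM, others 665 to 709). Of the small intestine sum in Degs2_KO3, Fabp2 held 436 CPM and Cbr1 255 CPM. Car1 alone held 6570 CPM of the distal colon sum in Degs2_KO3, and no other gene of the distal colon list was highest there within Degs2_KO. WT1 was the high library for Tgm2 (23.1 CPM, the other WT libraries 5.29 to 8.16). For Aldh1a1 and Isx in WT the limit was not passed, since WT4 lay between WT1 and the other WT libraries.

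WT4 stood apart for Aldh1a2 (1.48 CPM, other WT libraries 0.169 to 0.334) and for the summed epithelial markers (16285 CPM, others 12682 to 13128). Degs2_KO4 was low for Rbp2 (5.50 CPM, others 8.44 to 8.86). Degs2_KO1 was high for Apob (228.6 CPM, others 85.9 to 108), low for Ppard (242.8 CPM, others 301.7 to 309.3) and had the most fragments of the Degs2_KO libraries (46.2 M, others 43.2 to 43.7 M).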

How the results depend on the processing

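The count of members past the adjusted threshold was 0 in the fit reported and in all 17 alternatives, as was that of the other pathway genes, and the smallest adjusted p of a member was 0.879. Over all genes the count was 0 except with DESeq2, which called 2, one of them Degs2 (log2 fold change -1.06). At an unadjusted p under 0.05 edgeR found 183 of 16132 tested genes in the fit reported. The number was 782 of 16367 without WT replicate 1 and 650 of 16214 without WT1 and Degs2_KO3 together. It was 298 of 16395 without Degs2_KO replicate 1 and 292 of 16384 without Degs2_KO replicate 3. With no filter it was 401, but of 28352 genes tested. The samples share only a replicate number: same-numbered libraries had correlated deviations of -0.42, 0.44, -0.56 and -0.10, and only Degs2_KO2 correlated best with the WT library of its number. With the replicate block edgeR called 0 genes and 0 members, with 99 genes and 1 member (Rbp2) at an unadjusted p under 0.05. Of the members' log2 fold changes, 6 kept their sign in every alternative that could be fitted and 4 did not. With 1 library left out, the log2 fold changes that turned sign ranged as follows: Aldh1a1 (-1.80 to 0.97), Aldh1a3 (-0.54 to 0.019), Dhrs3 (-0.16 to 0.092), Isx (-1.08 to 0.88), Dgat1 (-0.11 to 0.033), Stra6l (-0.38 to 0.14), Adh1 (-0.42 to 0.047), Retsat (-0.081 to 0.088), Akr1b8 (-0.019 to 0.24), Ugt2b34 (-0.017 to 0.12), Ppard (-0.11 to 0.057), Ncor1 (-0.20 to 0.12), Nrip1 (-0.24 to 0.061), Tgm2 (-0.64 to 0.75). With WT1 and Degs2_KO3 left out together, the sign also turned for Isx (-0.37), Retsat (-0.039) and Ncor1 (0.018), and with the stricter filter for Tgm2 (-0.0012). The cause was not tested. The stricter filter kept 7 of the 10 members. Depth limits Aldh1a2 and Rarb, with 139 and 147 fragments in all.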

Other observations

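Of the 48 other pathway genes tested, 8 had a spread over libraries above that of 90% of all tested genes. Lrat, the acyltransferase that stores retinol as esters, was at 5.32, 5.38, 13.1 and 5.55 CPM in Degs2_KO1 to 4, against 14.4, 4.43, 5.20 and 7.83 CPM in WT1 to 4. Lpl, a lipase that also hydrolyses retinyl esters, was at 12.4, 10.4, 47.8 and 8.18 CPM in Degs2_KO1 to 4, against 40.0, 9.31, 13.5 and 23.3 CPM in WT1 to 4. Rdh1, a retinol dehydrogenase of a cluster of related genes, was at 2.55, 2.32, 8.77 and 1.59 CPM in Degs2_KO1 to 4, against 7.396, 1.17, 1.19 and 2.72 CPM in WT1 to 4. These and Tgm2 were highest in Degs2_KO3 and WT1.

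Genes of the group that were lowest in those libraries were Ttr, a retinol transport protein, and Rdh16, a retinol dehydrogenase. Ttr was at 19.6, 23.6, 7.55 and 18.1 CPM in Degs2_KO1 to 4, against 9.64, 29.0, 31.8 and 13.7 CPM in WT1 to 4. Rdh16 was at 65.9, 75.0, 31.9 and 65.6 CPM in Degs2_KO1 to 4, against 33.6, 91.0, 79.3 and 112 CPM in WT1 to 4. Stra6, a retinol transporter, was at 0.0719 to 0.830 CPM in Degs2_KO and 0.193 to 1.21 CPM in WT. None of the 8 passed edgeR's adjusted threshold or an unadjusted p under 0.05.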
